A study of Mus musculus with 6 samples.

Results

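The expression of 10 genes of the integrated stress response and the unfolded protein response was measured in kidneys of WT and Selenbp1-KO mice. The genes were Atf4, Ddit3, Trib3, Chac1, Sesn2, Asns, Psat1, Phgdh, Xbp1, and Herpud1. The genes were chosen with earlier results of these data known. Their probes were taken by name alone, as those on the array that carry 1 of these gene names. This gave 18 probes for the 10 genes, out of 56605 probes that are not controls. All 18 were among the 56097 probes tested, which represent 37028 genes. The array had 1 probe each for Trib3, Chac1, Sesn2, and Phgdh, 2 probes each for Atf4, Ddit3, Asns, and Herpud1, and 3 probes each for Xbp1 and Psat1.

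The study asked how kidney gene expression changes when Selenbp1, a cytosolic selenium-binding protein, is missing. The WT group held 3 C57BL/6J males (replicates 2, 3, and 4) and the Selenbp1-KO group held 3 males whose strain is given as C57BL/6J with the genotype Selenbp1-KO (replicates 1, 2, and 3, also written KO mice 1, 2, and 3). All 6 mice were 8 weeks old, had been fasted for 20 h, and received no dioxin. The WT mice were bought from a breeder, and no source used here says that the groups were littermates. RNA of the left kidney of each mouse was labeled with Cy3 and hybridized to 1 array of its own. RNA of a whole kidney comes from many cell types, so fewer cells of a type and less RNA per cell cannot be told apart.

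Cells that lack amino acids, hold unfolded protein in the endoplasmic reticulum (ER), or meet other stresses phosphorylate the translation factor eIF2, which lowers protein synthesis as a whole and raises translation of the transcription factor ATF4. ATF4 turns on genes of amino acid synthesis and transport and, when stress lasts, the transcription factor CHOP, encoded by Ddit3. In the ER, the sensors PERK, IRE1, and ATF6 start the unfolded protein response: PERK acts through eIF2, IRE1 splices the mRNA of Xbp1, and ATF6 and XBP1 turn on chaperones and the machinery that degrades misfolded ER protein. In the kidney, these pathways are known for their part in injury of tubule cells.

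The probes are 60 bases long. The following 4 show what the array reads for the stress response factor Atf4, its partner Ddit3, and the amino acid enzymes Asns and Psat1. No base is marked in them. In mm9, the build of the files, the Atf4 probe lies at chr15:80087079-80087138 on the plus strand, the Ddit3 probe at chr10:126732518-126732821 on the plus strand, the Asns probe at chr6:7626110-7626255 on the minus strand, and the Psat1 probe at chr19:15991586-15991645 on the minus strand. The Ddit3 probe covers 304 bases of the genome, 244 more than its length, and the Asns probe covers 146 bases, 86 more than its length, so both read across a gap in the genome as spliced RNA does.
Atf4, second probe: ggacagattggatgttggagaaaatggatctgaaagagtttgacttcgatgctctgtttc
Ddit3, first probe: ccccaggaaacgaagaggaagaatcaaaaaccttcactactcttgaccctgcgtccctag
Asns, second probe: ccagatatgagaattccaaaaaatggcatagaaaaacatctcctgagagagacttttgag
Psat1, second probe: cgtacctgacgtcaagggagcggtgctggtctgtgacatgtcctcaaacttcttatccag

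The promoters of these genes were searched for the letters known from each arm of the response, on both strands, in RefSeq sequences of GRCm38.p6 that run from 250 bases before to 50 bases after the gene start. All 10 genes matched, with 11 promoters because Psat1 is listed with 2. TGATGNAA, letters bound by ATF4 with a C/EBP partner, were in the promoters of 4 of the 10 genes and in 3.97% of all 32851 promoters. They are given here with 11 bases to each side, read on the strand on which the letters run this way, with the letters in capitals. Their place is that of their first base along the strand of the gene, whichever strand they are read on. This base lay 193 bases before the start of Chac1 (chr2:119351038-119351067, minus strand) and 14 bases after that of Trib3 (chr2:152344028-152344057, plus strand). It lay 23 bases before the start of Asns (chr6:7693214-7693243, minus strand) and 112 bases before that of Herpud1 (chr8:94386306-94386335, minus strand).
Chac1: cctggcaggagTGATGCAAcggcagggaag
Trib3: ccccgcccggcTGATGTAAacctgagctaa
Asns: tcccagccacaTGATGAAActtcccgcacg
Herpud1: ggggtgcgggcTGATGCAAcccgccgtggt
TGACGTGG, letters bound by ATF6 and XBP1, were in 0.676% of all promoters, and the ER stress element, written as CCAAT, then 9 bases, then CCACG, was in 0.119%. Neither was in these windows of the 10 genes. A match describes the letters of the window and nothing more, and the absence of one says only that the letters are not in this window.

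Signals are given as the log2 of the background-subtracted intensity relative to the 75th percentile of the array, so 0 is the 75th percentile and 1 is a doubling above it. Differences are Selenbp1-KO minus WT on this scale. Since probes differ in how well they bind, the level of one probe was not compared with that of another. A probe was called when its unadjusted p from limma was under 0.05, the criterion of the methods. The labels were checked with the targeted gene: Selenbp1 differed by −2.96 (standard error 0.098, limma, adjusted p = 0.0021), with 7.02 to 7.07 on the WT arrays and 3.98 to 4.13 on the Selenbp1-KO arrays. The Selenbp1 signal was thus still well above background on all 3 Selenbp1-KO arrays, and no source used here says whether the probe lies in the deleted part. The 75th percentile was 711 and 751 on WT replicates 2 and 3 and from 477 to 584 on the other 4 arrays. On WT replicates 2 and 3, 55.4% and 55.5% of spots were well above background, against 51.8% to 53.4% on the others. No spot was saturated. All 20 markers of the proximal tubule and of the distal nephron and collecting duct were well above background, and none of them was called. All 6 arrays lay on 1 slide, with WT replicates 2 and 3 in positions that begin with 1 and the other 4 arrays in positions that begin with 2. The labels do not say how replicates relate to cages or litters, so the p-values measure the spread between these mice alone. With 3 arrays against 3, an exact permutation test of 1 gene cannot give a two-sided p below 0.1.

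None of the 10 genes was called, and none of their 18 probes was. Across all genes tested, represented by the brightest probe over the 6 arrays, 8.00% were called at this criterion, 6.87% higher and 1.13% lower in Selenbp1-KO kidneys, and 7.98% of all probes were called. After Benjamini–Hochberg adjustment 0.00540% of genes, 2 genes, passed. All 10 genes are well above background on all 6 arrays by their brightest probe, and among genes well above background (on all arrays of 1 or both genotypes) 5.79% were called. The WT and Selenbp1-KO arrays overlapped for all 18 probes, against 14.1% of all genes and 19.0% of genes well above background whose genotypes did not overlap. By the brightest probe, 3 of the 10 genes were higher and 7 lower in KO than in WT kidneys, with a median difference of −0.08, while the median was 0.13 over all genes and 0.02 over genes well above background. By these probes, the adjusted p closest to the threshold was that of Chac1, 0.499 from limma.

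**Figure D1:**
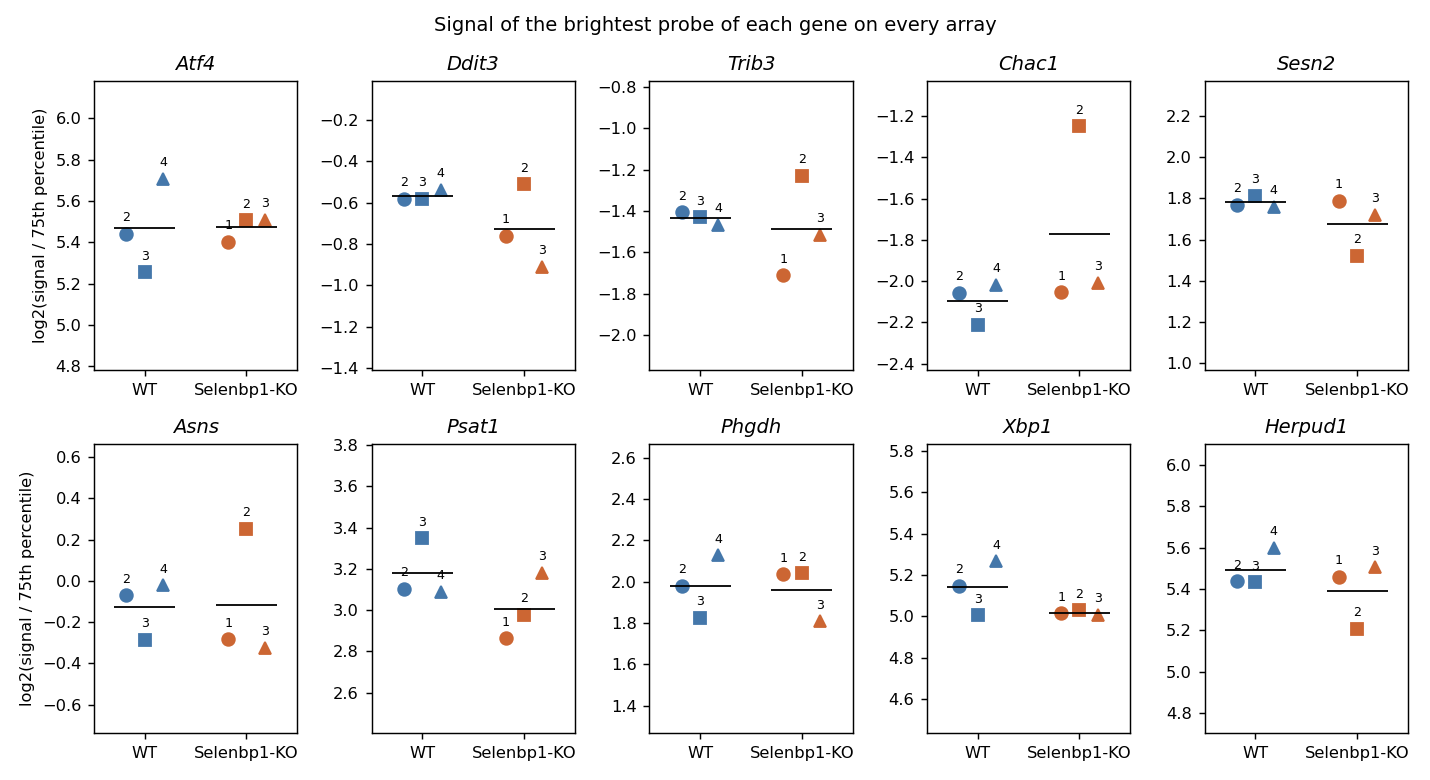
Each panel plots the log2 signal of 1 gene, relative to the 75th percentile of the array, with 1 point per array, its replicate number above it, and a line at the mean of each genotype, and every panel spans the same range. The points of WT and Selenbp1-KO kidneys overlap in all 10 panels, and Selenbp1-KO replicate 2 stands at −1.25 for Chac1 while the other 5 arrays lie between −2.21 and −2.01.

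Atf4 encodes the transcription factor at the center of the integrated stress response. Its brightest probe (NM_009716) had a log2 signal of 5.44, 5.25, and 5.71 in WT mice 2, 3, and 4 against 5.40, 5.51, and 5.51 in KO mice 1, 2, and 3. The 3 Selenbp1-KO arrays lay inside the range of the WT arrays. The difference was 0.01 (standard error 0.14), a ratio of 1.004 with a 95% interval from 0.789 to 1.28. The second probe had 1.07, 0.95, and 1.09 in WT against 1.06, 1.12, and 1.08 in KO mice, which gave a difference of 0.05 (standard error 0.098). The mRNA of Atf4 is a limited readout of the pathway, since stress acts on its translation.

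Ddit3 encodes CHOP, a transcription factor that takes part in cell death after lasting ER stress. Its brightest probe (NM_007837), whose sequence is printed above, had −0.58, −0.58, and −0.54 in WT mice 2, 3, and 4 against −0.76, −0.51, and −0.91 in KO mice 1, 2, and 3. The WT arrays were close together, with Selenbp1-KO replicate 2 above all of them and the other Selenbp1-KO arrays below. The difference of −0.16 (standard error 0.13, limma, adjusted p = 0.561) was a ratio of 0.895 (95% interval 0.717 to 1.12). The second probe, designed on the Ensembl transcript ENSMUST00000134686, differed by −0.36 (standard error 0.38), and its arrays ranged from −3.80 to −2.52 in WT and from −3.89 to −3.04 in Selenbp1-KO kidneys.

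Trib3, which encodes a pseudokinase that binds ATF4 and dampens it, had −1.41, −1.43, and −1.47 in WT mice 2, 3, and 4 against −1.71, −1.23, and −1.52 in KO mice 1, 2, and 3 (NM_175093). As for Ddit3, the WT arrays lay close together between the Selenbp1-KO arrays, of which replicate 2 was the highest. The difference was −0.05 (standard error 0.15), a ratio of 0.965 (95% interval 0.755 to 1.23).

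Chac1 encodes an enzyme that degrades glutathione. It had −2.06, −2.21, and −2.02 in WT mice 2, 3, and 4 against −2.05, −1.25, and −2.01 in KO mice 1, 2, and 3 (NM_026929). Selenbp1-KO replicate 2 was above all other arrays, and the other Selenbp1-KO arrays were at the level of the upper WT arrays. Chac1 had the largest difference of the 10 genes by their brightest probe, 0.32 (standard error 0.23), and the widest interval, a ratio of 1.25 with a 95% interval from 0.842 to 1.86. Without Selenbp1-KO replicate 2 the difference was 0.07.

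Sesn2 encodes sestrin 2, a stress-induced inhibitor of the growth kinase complex mTORC1. Its log2 signal was 1.77, 1.81, and 1.76 in WT mice 2, 3, and 4 against 1.79, 1.52, and 1.72 in KO mice 1, 2, and 3 (NM_144907). The WT arrays were close together, and Selenbp1-KO replicate 2 was the lowest array. The difference was −0.10 (standard error 0.11), a ratio of 0.931 (95% interval 0.771 to 1.12).

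None of the 3 amino acid enzymes among the genes was called. Asns makes asparagine from aspartate. Its brightest probe (NM_012055) had −0.07, −0.28, and −0.02 in WT mice 2, 3, and 4 against −0.28, 0.25, and −0.32 in KO mice 1, 2, and 3. Selenbp1-KO replicate 2 was the highest array, and the other Selenbp1-KO arrays were at the low end of the WT arrays. The difference was 0.01 (standard error 0.19), a ratio of 1.01 (95% interval 0.733 to 1.38). The second probe, printed above, put the arrays in a like order, with −3.44 in Selenbp1-KO replicate 2 and from −4.02 to −3.62 in the others, and differed by −0.13 (standard error 0.18).

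Psat1 and Phgdh encode enzymes of serine synthesis, with PHGDH at the first step and PSAT1 at the next. The brightest Psat1 probe (NM_001205339) had 3.10, 3.35, and 3.09 in WT mice 2, 3, and 4 against 2.86, 2.98, and 3.18 in KO mice 1, 2, and 3. The lowest values were those of Selenbp1-KO replicates 1 and 2, and the genotypes overlapped through replicate 3. The difference of −0.17 (standard error 0.14, limma, adjusted p = 0.539) was a ratio of 0.887 (95% interval 0.705 to 1.11). The second probe, printed above, differed by −0.04 (standard error 0.16). The remaining probe, on the Ensembl transcript ENSMUST00000162233, was well above background on no array, so no fold is given for it.

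Phgdh had 1.98, 1.83, and 2.13 in WT mice 2, 3, and 4 against 2.04, 2.04, and 1.81 in KO mice 1, 2, and 3 (NM_016966). The genotypes covered nearly the same range, and the difference was −0.02 (standard error 0.13), a ratio of 0.988 (95% interval 0.793 to 1.23). Phgdh lies on chromosome 3, as the targeted gene does, with its probe 3.37 Mb from that of Selenbp1.

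Xbp1 encodes the transcription factor that IRE1 activates by splicing. Its brightest probe (NM_013842) had 5.15, 5.004, and 5.27 in WT mice 2, 3, and 4 against 5.01, 5.03, and 5.01 in KO mice 1, 2, and 3. The Selenbp1-KO arrays were nearly equal and lay at the level of the lowest WT array. The difference was −0.12 (standard error 0.11), a ratio of 0.918 (95% interval 0.764 to 1.104). The other probes of Xbp1 differed by −0.10 (standard error 0.11) and −0.10 (standard error 0.12). On these probes WT replicate 4, the highest array for the brightest probe, was the lowest WT array, and Selenbp1-KO replicate 2 was the lowest of all. Each of the 3 probes is annotated to 2 RefSeq transcripts of Xbp1, so splicing was not measured.

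The call of Xbp1 depended on the normalization. After quantile normalization, which gives all arrays 1 distribution of values, the difference of its brightest probe was −0.21 (standard error 0.063) and was called, as 9.10% of genes were. In the table of processed intensities that the authors deposited, whose 6 columns have equal quartiles and whose normalization is not stated, it was −0.18, also called, where 9.07% of genes were. The other Xbp1 probes were not called with quantile normalization, where they differed by −0.11 and −0.10. The limma adjusted p of the brightest probe was 0.502 there, and that of both other probes 0.781. No other gene of the 10 was called in any of 19 alternatives, and the lowest limma adjusted p of any of the 10 in any alternative was 0.215.

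Herpud1 encodes a membrane protein of ER-associated degradation (ERAD). Its brightest probe (NM_022331) had 5.44, 5.43, and 5.60 in WT mice 2, 3, and 4 against 5.46, 5.21, and 5.50 in KO mice 1, 2, and 3. Selenbp1-KO replicate 2 was the lowest array, and the other Selenbp1-KO arrays were within the WT range. The difference was −0.10 (standard error 0.13), a ratio of 0.933 (95% interval 0.755 to 1.15), and the second probe, where Selenbp1-KO replicate 2 was again the lowest, gave −0.10 (standard error 0.13).

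**Figure D2:**
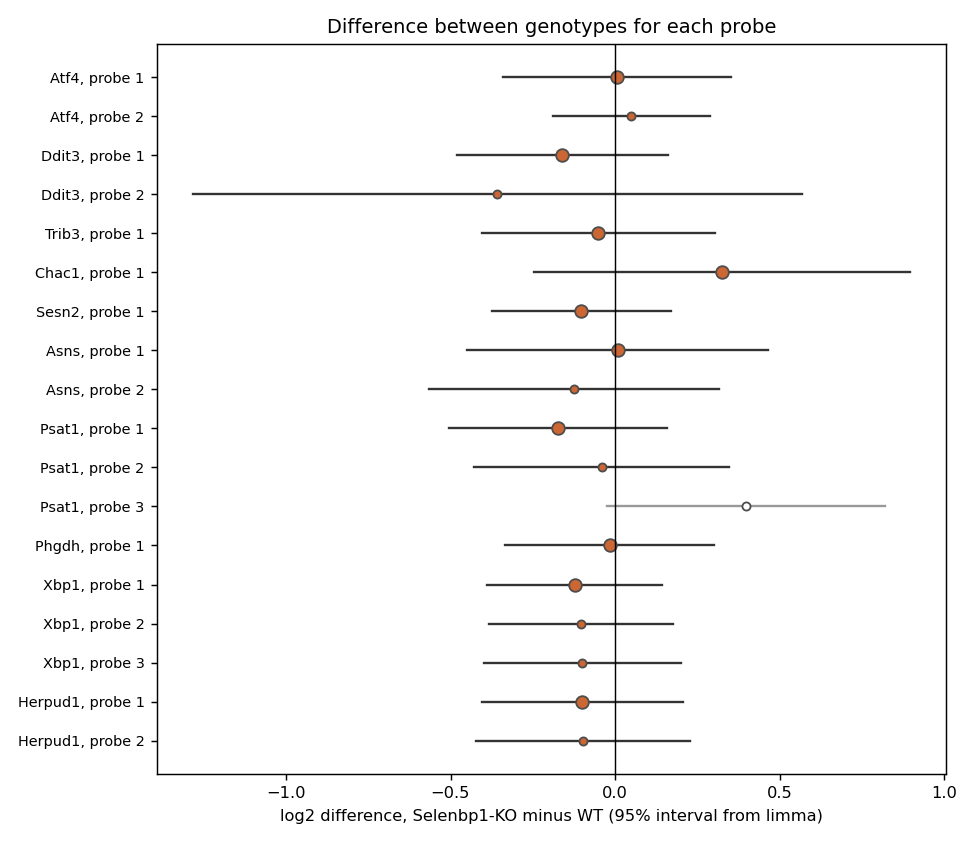
The log2 difference, Selenbp1-KO minus WT, is plotted for the 18 probes with its 95% interval from limma, with large points for the brightest probe of a gene and an open point for the dim Psat1 probe. All 18 intervals include 0, and the widest for a brightest probe is that of Chac1, from −0.25 to 0.90.

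The intervals bound what the arrays allow. Apart from Chac1, the 95% intervals of the brightest probes of the other 9 genes all lay between ratios of 0.705 and 1.38. The arrays themselves were not alike for these genes. Selenbp1-KO replicate 2 had the highest signal of the 6 arrays for 4 of the 10 genes, Chac1, Asns, Trib3, and Ddit3, and the lowest for Herpud1 and Sesn2. Over the genes well above background it was the highest array for 19.9% and the lowest for 19.0%. Without this array the differences were −0.18 for Asns, −0.18 for Trib3, −0.27 for Ddit3, −0.03 for Sesn2, and −0.01 for Herpud1, and none was called. WT replicate 4 was the highest for the brightest probes of Atf4, Xbp1, Herpud1, and Phgdh, and for 24.5% of genes well above background.

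A list of 17 genes held the kinases, phosphatase subunits, and exchange factor that act on eIF2, subunits of eIF2 itself, and related genes. Of these 17 genes 0 were called by limma, and their differences ran from −0.11 to 0.07 with a median of −0.02. Eif2ak3, which encodes PERK, differed by −0.02 (standard error 0.14), and Eif2ak4, which encodes the amino acid sensor GCN2, by −0.07 (standard error 0.11). Ppp1r15a encodes the stress-induced subunit of the phosphatase that restores eIF2. It had 1.72, 1.82, and 1.88 in WT against 1.86, 1.798, and 1.98 in KO mice, which gave a difference of 0.07 (standard error 0.11).

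Of 39 other genes that respond to ATF4, 2 were called higher and 1 lower, together 7.69%, against 8.00% of all genes, so the share is near the background. In the list 16 genes were above 0 and 23 below 0, with a median of −0.03. The gene called lower was Slc38a2, which encodes the amino acid transporter SNAT2. Its signal was 2.004, 1.69, and 1.71 in WT mice 2, 3, and 4 against 1.496, 1.54, and 1.39 in KO mice 1, 2, and 3. All WT arrays were above all Selenbp1-KO arrays, and the difference was −0.33 (standard error 0.13, limma, adjusted p = 0.279).

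The genes called higher, named here after their values were seen, were the amino acid transporters Slc7a5 and Slc7a11, and both were dim. Slc7a5 was well above background on 1 Selenbp1-KO array and on no WT array. Its log2 signal was −6.20, −5.45, and −6.86 in WT mice 2, 3, and 4 against −4.80, −4.29, and −5.25 in KO mice 1, 2, and 3 (limma, adjusted p = 0.279). Slc7a11, which encodes the cystine transporter xCT, was well above background nowhere (limma, adjusted p = 0.279). As most or all of their signals were not well above background, no fold is given for these genes. Slc3a2, the partner subunit of both transporters, had 4.82, 5.03, and 4.78 in WT against 4.80, 4.78, and 4.89 in KO mice, which gave a difference of −0.05 (standard error 0.11).

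Other stress factors of this list were not called. Atf3, a transcription factor induced by many stresses, had −1.89, −3.14, and −2.91 in WT against −3.04, −3.19, and −3.10 in KO mice. The difference of −0.47 (standard error 0.33) came with 1 WT array, replicate 2, far above the other 5. Nupr1, a stress-induced chromatin protein, was high in 1 array of each genotype, with 4.12, 3.07, and 3.23 in WT mice 2, 3, and 4 against 2.95, 4.10, and 2.80 in KO mice 1, 2, and 3. Its difference was −0.19 (standard error 0.44). Gdf15, a secreted stress hormone, had 1.37, 1.57, and 0.999 in WT against 1.04, 0.80, and 2.06 in KO mice, where replicate 3 was the highest array, and differed by −0.01 (standard error 0.35). Fgf21, a hormone of fasting and stress, was well above background on no array.

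The list holds 11 aminoacyl-tRNA synthetases, which load tRNAs with their amino acids. They were set apart here and were not a list of their own. Of the synthetases 9 were below 0 and 2 above it, with a median of −0.09 and none called. Below 0 were also 8814 of 19262 genes well above background and 11690 of 37025 genes with a value on every array. The genotypes did not overlap for 4 of the synthetases, Iars, Tars, Aars, and Eprs, chosen here after their values were seen. Each of these was lower in all Selenbp1-KO arrays. Over all genes the genotypes did not overlap for 14.1%, and over genes well above background for 19.0%. In the list of 39 genes they did not overlap for 10. Of those, Atf5, Slc7a5, and Slc7a11, named after their values were seen, were higher in Selenbp1-KO kidneys and the others lower. The differences of the 4 synthetases ran from −0.16 for Iars (standard error 0.11) to −0.11 for Eprs (standard error 0.10).

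**Figure D3:**
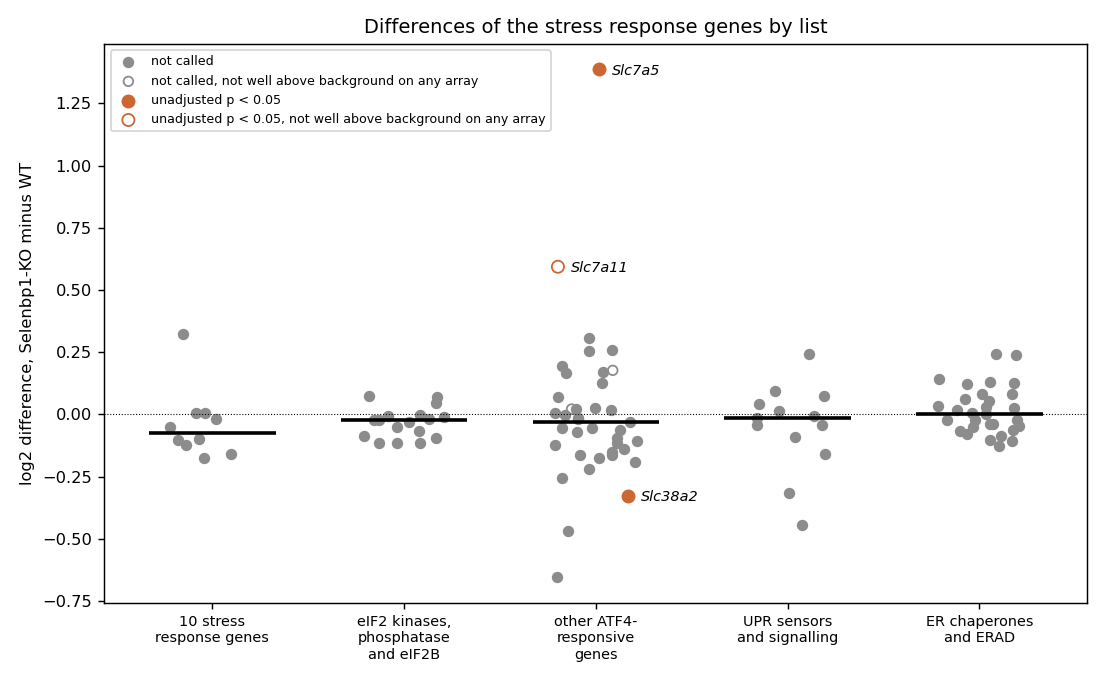
Each point is the log2 difference, Selenbp1-KO minus WT, of the brightest probe of 1 gene, and a line marks the median of each list. Colored points have an unadjusted p under 0.05 in limma, and open points are well above background on no array: 3 of the 39 other ATF4-responsive genes are colored, and no gene in any other column is.

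None of the 13 sensors and signaling genes of the unfolded protein response was called by limma, with a median difference of −0.01. Ern1, which encodes IRE1, had 0.55, 0.57, and 0.77 in WT against 0.44, 0.44, and 0.54 in KO mice. Its WT arrays were all above its Selenbp1-KO arrays, and its difference was −0.16 (standard error 0.11). The genotypes did not overlap for 2 of the 13 genes, against 14.1% of all genes and 19.0% of genes well above background. The other of the 2, Creb3l1, named after its values were seen, was higher in all Selenbp1-KO arrays. Its difference was 0.24 (standard error 0.12). Atf6 differed by −0.09 (standard error 0.10).

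None of the 30 ER chaperones and ERAD genes was called by limma, and their median difference was 0.003. Hspa5 encodes BiP, the main chaperone of the ER. It had 5.16, 5.11, and 5.64 in WT mice 2, 3, and 4 against 5.38, 5.25, and 5.21 in KO mice 1, 2, and 3, with WT replicate 4 the highest. The difference was −0.02 (standard error 0.17). Hsp90b1, which encodes the chaperone GRP94, differed by −0.02 (standard error 0.13), and Dnajb9, a target of XBP1, by −0.06 (standard error 0.11). WT replicate 4 was the highest array for 14 of the 30 genes and Selenbp1-KO replicate 1 for 10, while Selenbp1-KO replicate 2 was the lowest for 10. Over genes well above background these shares were 24.5%, 16.2%, and 19.0%.

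Markers of some other cell types were called by their unadjusted p, against 6.87% of all genes called higher. No marker in any list passed Benjamini–Hochberg adjustment. For macrophages 7 of 9 markers were called higher in Selenbp1-KO kidneys, and the sum of their linear signals, in units of the 75th percentile, was 15.5 to 19.1 in WT and 21.5 to 23.3 in Selenbp1-KO arrays. For connective tissue fibroblasts 4 of 6 were called higher, with sums of 19.5 to 25.8 and 31.9 to 41.4, and for red blood cells 4 of 5, with sums of 258 to 346 and 364 to 540. Each sum weighs the markers by their signal, so it mostly follows the brightest of them and not the list as a whole. All of the markers in these lists were well above background on every array, apart from the macrophage marker Cd163, which was so on 2 of 3 WT arrays. Of the glomerulus markers 1 of 6, Synpo, was called higher, and limma called 0 of 6 for endothelium and 0 of 7 for adrenal cortex, of which 3 were well above background. For fat tissue 0 of 5 were called by limma, all 5 were above 0 with a median difference of 0.75, and the sums were 17.1 to 34.5 in WT and 21.2 to 77.2 in Selenbp1-KO arrays. Named after their values were seen, the fat markers Adipoq (2.70), Cidec (4.21), Fabp4 (5.68), and Plin1 (−0.37) were highest in Selenbp1-KO replicate 2. This array was also the highest for Chac1, Asns, Trib3, and Ddit3. The remaining fat marker, Lep, was highest in Selenbp1-KO replicate 1 (−1.89, against −1.96 in Selenbp1-KO replicate 2). Selenbp1-KO replicate 1 was above all WT arrays for every fat marker, and it was the lowest array for Trib3. The 13 immediate early genes, which respond to handling of tissue among other stimuli, had 0 calls by limma, with sums of 31.5 to 38.7 in WT and 34.6 to 40.8 in Selenbp1-KO arrays. Among them, and named after their values were seen, Fos, Fosb, Egr1, and Egr2 were highest in WT replicate 2, the array that was also highest for Atf3. Fosb had −2.31 there against −4.84 to −4.18 on the other arrays, and Egr1 had −0.49 against −2.30 to −1.56. Dusp1 and Nr4a1 were also highest in WT replicate 2. The rest of the list, Jun, Junb, Zfp36, Ier2, Ier3, Klf4, and Btg2, was highest in a Selenbp1-KO array. The part of these cell types and of the immediate early response in the values of the stress response genes was not tested.

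**Figure D4:**
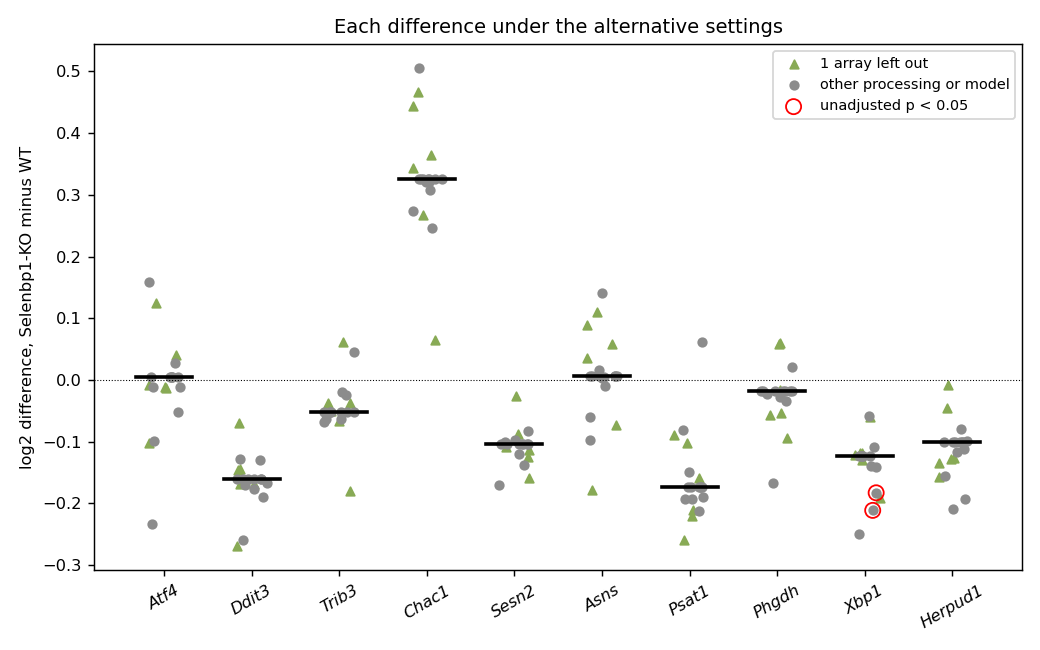
The log2 difference of each gene is plotted under 19 alternatives, by its brightest probe except in 1 that takes the mean of its probes. Triangles mark fits with 1 array left out and circles other processing or models, with a black line at the value reported above. Only Xbp1 has values with an unadjusted p under 0.05, circled at −0.21 and −0.18. The differences of Atf4, Trib3, Asns, Psat1, and Phgdh lie on both sides of 0, that of Psat1 above 0 only as the mean of its probes.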

How the data were processed

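RNA of 6 kidneys, 3 WT and 3 Selenbp1-KO, was hybridized to Agilent arrays with a single dye. For every array the authors deposited the scanner output, made with Feature Extraction (10.7.1.1 in the headers, 9.5.1.1 in the submitters' notes). Its linear intensities had been corrected for background and for trends across the array, and each spot has a p-value against its background, as deposited. The authors also deposited a table of intensities with equal quartiles in the 6 columns, whose normalization is not stated.

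The log2 intensity of each spot was taken minus that of the array's 75th percentile, outlier spots were left out, and repeated spots were averaged. The filter of the methods, detection at p under 0.05 on 1 or more arrays, was kept, and probes were compared with limma (3.58.1, lmFit and eBayes, two-sided, R 4.3.3), and called below an unadjusted p of 0.05, the methods' criterion. Adjusted values are Benjamini–Hochberg over all probes. The brightest probe stands for a gene. Accessions matched to RefSeq of GRCm38.p6 named 32994 probes. The fit was tested on simulated data. The genes, lists, and tests were chosen with earlier results of these data known. Named genes are the 10 with all their probes, 12 anchor genes of the pathways, and up to 6 called genes per list that were well above background; Slc38a2 alone met the last rule. Other genes are said to be chosen after their values were seen, or are partners of such genes. Alternatives were normexp background correction (offset 50), quantile normalization, median scaling, the deposited table, other filters, flagged spots kept, trend and robust options, the methods' t-test, slide side or replicate number as a block, each array left out, and the mean of a gene's probes. No sample was left out.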

Additional observations from a re-analysis of the deposited data

How the results depend on the processing

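Over the 10 genes and 19 alternatives, 168 differences kept their sign and their side of the threshold, 20 changed sign, and 2, both of Xbp1, became called. Many of the 168 could not change sign. For these genes the other filters, flagged spots kept, trend and robust options, and the methods' t-test left the differences as they were. Only the p-values differed there. Atf4 was −0.011 after normexp background correction, −0.10 with quantile normalization, −0.011 with median scaling, −0.052 in the deposited table, −0.23 with slide side as a block, and between −0.10 and 0.12 when an array was left out. Trib3 was 0.046 with the replicate block and between −0.18 and 0.061 when an array was left out. Asns was −0.0094 with median scaling, −0.096 with slide side as a block, −0.060 as the mean of its probes, and between −0.18 and 0.11 when an array was left out. Psat1 was 0.061 as the mean of its probes, which takes in the probe that was well above background on no array. That probe was above 0, and the other Psat1 probes were below 0. Phgdh was 0.021 with the replicate block and between −0.093 and 0.060 when an array was left out. The cause of these changes was not tested, and none of them was called.

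Of the 10 genes, 0 were called, against 1, Xbp1, with quantile normalization and 1 in the deposited table, and 0 with any array left out or by the methods' t-test. The count of eIF2 genes called was 0, and 1 with the mean of all probes. That of the other ATF4-responsive genes was 3, and 7 with quantile normalization, 6 in the deposited table, 6 with trend and robust options, 5 by the methods' t-test, and 1 to 4 with an array left out, the lowest without Selenbp1-KO replicate 3. That of the sensors was 0, and 1 with quantile normalization, in the deposited table, with the filter for bright probes, and with trend and robust options, and 0 to 1 with an array left out. That of the ER chaperones was 0, and 2 with quantile normalization, 1 in the deposited table, with trend and robust options, and with slide side as a block, and 0 to 2 with an array left out, the highest without WT replicate 4. Over all probes the count was 4479, 81.1% of them higher. It was 14616 with median scaling, 2841 with the filter for bright probes (well above background), 7536 with trend and robust options, and 2024 to 17585 with an array left out, the highest without WT replicate 4. Of the probes called, 53.8% were higher with quantile normalization and 37.3% with slide side as a block. The median difference of all genes was 0.13 here and 0.004 with quantile normalization. Since positions that begin with 1 held WT arrays alone, the fit with slide side as a block compares WT replicate 4 with the Selenbp1-KO arrays.

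The groups share replicate numbers 2 and 3, and the deviations of same-numbered arrays from their group means correlated with r = 0.171 and 0.187 over probes. With 2 shared numbers these do not show that the samples are paired. No other array shares the number of WT replicate 4 or of Selenbp1-KO replicate 1. The fit with the replicate block thus compares only replicates 2 and 3 of each genotype. With the replicate block 18430 probes and 0 of the 10 genes were called. It moved no count of the pathway lists by more than 1.5 times.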
